A study of Mus musculus with 36 samples.

Results

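Ago2-bound RNA was examined on 9 genes whose products make miRNAs or act on the mRNAs that miRNAs repress. They are Dgcr8, Xpo5 and Dicer1 on the side of miRNA processing, Cnot1, Cnot6, Cnot6l and Cnot7 of the CCR4-NOT deadenylase, the helicase Ddx6 and the poly(A)-binding protein Pabpc1. The members were all peaks whose annotated target gene is 1 of these 9, and they number 34 of the 7730 merged peaks of the series, of which 7585 carry an annotation. All 9 genes had at least 1 peak, against 3933 genes with a peak in all. The peaks came from Halo-enhanced Ago2 pulldown (HEAP), a CLIP-type assay in which Ago2 carries a Halo tag that binds covalently to a resin and is recovered with its UV-crosslinked RNA.

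The G12D tumours carried 1 Halo-Ago2 allele, Villin-CreER, floxed Apc on both copies and 1 K-Ras-G12D allele, and the WT tumours carried the same alleles without that one. Both groups were C57BL/6 mice given an enema of 200 µl 4-hydroxytamoxifen (5 mg/ml) at 8 to 12 weeks, and both lack Apc in the recombined cells, so neither is a normal colon. The Villin promoter drives CreER in gut epithelium, and the tissue taken was tumour lawn resected or scraped from the colon of moribund animals, so each sample can hold other cells. Each of 12 tumours, 6 G12D and 6 WT, gave an Ago2-bound mRNA library, an Ago2-bound miRNA library and an input control that is not used here, with 3 tumours of each genotype in each of 2 batches. Whether each numbered sample is a separate animal is not said in the labels, and p-values cover the spread between the samples as numbered. The purpose given in the series title is to find miRNA targets in colonic tumours.

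In animal cells DGCR8 binds hairpins in primary transcripts and positions Drosha to cut them, Exportin-5 carries the resulting precursors to the cytoplasm and Dicer cuts them to mature miRNAs. A miRNA in Ago2 then pairs with mRNAs mainly through bases 2 to 8, its seed, and the GW182 proteins recruit the CCR4-NOT complex. CNOT1 is the scaffold of that complex, CNOT6 and CNOT6L are alternative CCR4-type deadenylases, CNOT7 is a CAF1-type deadenylase, DDX6 binds CNOT1 and links the complex to translational repression and decapping, and PABPC1 coats the poly(A) tail that is removed. Several of these mRNAs are known to be miRNA targets themselves, such as DICER1, which let-7 and miR-103/miR-107 repress in human cells.

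The families with most sites in these peaks, or with the highest Ago2-bound level among families with a site, are shown by their most abundant miRNA, because the results below are read through their seeds. The miR-26 and miR-132 families, with 3 peaks each like miR-30 and miR-27, are shown too, miR-132-3p after its values were seen. The sequences are RefSeq mature miRNAs (GRCm38.p6), 5′ to 3′, with the seed in capitals, and miRNAs that share a seed follow each other.
let-7i-5p: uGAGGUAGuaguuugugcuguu
let-7a-5p: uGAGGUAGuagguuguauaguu
miR-98-5p: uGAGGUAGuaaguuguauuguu
miR-196b-5p: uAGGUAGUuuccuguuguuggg
miR-103-3p: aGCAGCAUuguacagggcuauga
miR-107-3p: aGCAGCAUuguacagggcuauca
miR-30e-5p: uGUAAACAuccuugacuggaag
miR-27a-3p: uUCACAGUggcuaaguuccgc
miR-200c-3p: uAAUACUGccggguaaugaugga
miR-19b-3p: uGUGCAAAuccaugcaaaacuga
miR-20a-5p: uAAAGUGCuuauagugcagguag
miR-26a-5p: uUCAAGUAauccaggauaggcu
miR-132-3p: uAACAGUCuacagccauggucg
The let-7 and miR-196 seeds overlap, shifted by 1 base. An 8mer site for let-7, CUACCUCA, therefore holds the 6mer site CUACCU of miR-196 within it. All 7 member peaks with a let-7 site were also annotated with a miR-196 site, as were 80.9% of all 847 let-7 peaks of the series.

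Peak signal is given as scaled counts, which are reads divided by a factor for each library taken over 2398 peaks read in all 12 libraries, so a value is relative to the peaks of its own library. The libraries differed in depth. Reads in peaks numbered 125384 to 974013 in 10 of the mRNA libraries, but 30607 in WT replicate 5 and 57037 in WT replicate 6, where 59.8% and 34.01% of all peaks had no read. Of the 34 peaks described here, 20 had no read in WT replicate 5 and 12 had none in WT replicate 6, and 1 read was worth 13.9 scaled counts in WT replicate 5, so results are given with and without these libraries. On this scale the median log2 fold change (limma, G12D over WT) of all tested peaks was 0.53, and -0.02 without these libraries. For sums per gene it was 0.48 and 0.04, and the fold changes below are read against these medians. The 34 peaks together took 0.388% to 0.563% of the peak reads in G12D libraries (mean 0.451% ± 0.0666, SD, n = 6) and 0.137% to 0.595% in WT libraries (mean 0.400% ± 0.172, SD, n = 6), and these ranges overlap. Of markers of the labelled tissue, 9 of 10 epithelial genes had peaks, with summed scaled counts of 3714 to 8216 in G12D and 2194 to 11648 in WT. None of 10 leukocyte genes had a peak. Of fibroblast and smooth muscle genes 3 of 11 (Col1a1, Col1a2, Col3a1) had peaks, which summed to 150.7 to 516.3 in G12D and 55.5 to 433.8 in WT, and of endothelial and nerve genes 1 of 7 (Ret) had, with 19.8 to 57.2 in G12D and 0 to 34.2 in WT. The part of these cells in the results below was not tested. Apc had no peak, so the peak table does not check the genotype labels at the deleted gene.

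Most of the Ago2 signal on these genes lay in exons and not in 3′ UTRs. The authors' annotation put 21 of the 34 peaks (61.8%) in exons, 7 (20.6%) in 3′ UTRs, 5 (14.7%) in introns and 1 (2.94%) in a 5′ UTR, whereas among all annotated peaks 32.2% were exonic, 51.9% in 3′ UTRs, 12.1% intronic and 3.74% in 5′ UTRs. The exonic peaks were spread over 6 genes, with 6 in Pabpc1, 5 in Dicer1, 4 in Cnot6 and 2 each in Cnot1, Ddx6 and Dgcr8. Several peaks on a gene were common here, since Pabpc1 had 7 peaks, Dicer1 and Ddx6 had 6 each and Cnot6 and Dgcr8 had 4 each. Cnot1 had 3, Cnot6l had 2, and Xpo5 and Cnot7 had 1 each. Only 2.62% of all genes with a peak had 7 or more, and the median gene had 1. Neither these counts nor the shares by annotation were tested, since the genes were chosen with earlier results known. A seed site for at least 1 miRNA family was annotated in 30 of the 34 peaks (88.2%), close to the 88.6% of all peaks, and an 8mer site in 14 (41.2%), against 35.6% of all peaks.

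**Figure D1:**
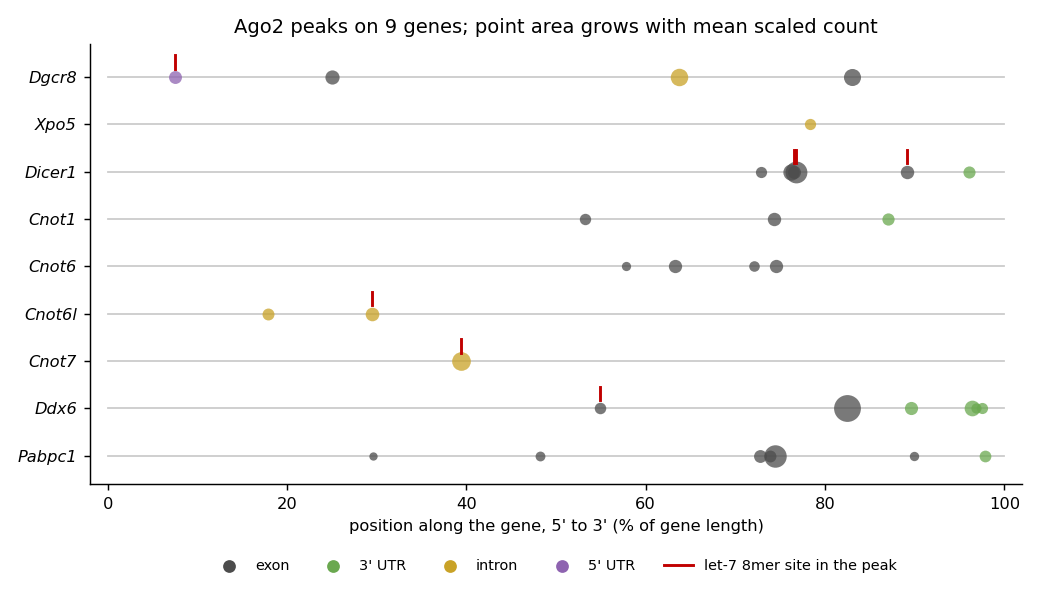
Peaks of the 9 genes by position from the gene's start (0) to its end (100) in percent of gene length, introns included. Each point is 1 of the 34 peaks, coloured by annotation, with an area that grows with its mean scaled count over 12 libraries, and red ticks mark the 7 peaks with a let-7 8mer site. The large Dicer1, Ddx6 and Pabpc1 points are exonic.

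let-7 had the most 8mer sites of any family. All 7 let-7 sites in these peaks were 8mers, and they lay in 5 of the 9 genes, with 3 in Dicer1 and 1 each in Dgcr8, Cnot6l, Cnot7 and Ddx6. These are 20.6% of the 34 peaks, against 11.2% of all peaks with any let-7 site and 4.98% with a let-7 8mer. Of the 7, 4 lay in exons, 2 in introns, 1 in the 5′ UTR and 0 in a 3′ UTR, whereas 41.1% of all let-7 peaks were in 3′ UTRs. No test was made of these shares, since the genes were chosen with earlier results known.

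Dicer1, the enzyme that cuts precursor miRNAs, held 8mer sites of both let-7 and miR-103/miR-107. Its 3 exonic peaks at chr12:104702669-104702727, chr12:104702794-104702846 and chr12:104703022-104703075 (minus strand, coordinates of the files, mm10/GRCm38) spanned 407 bases. The first and the second, 66 bases apart, each held a let-7 8mer, and the third, 175 bases on, held a miR-103/miR-107 8mer. The second also held a 7mer-m8 site for miR-196 (a match to the whole seed). A further exonic peak at chr12:104694669-104694731 held the other let-7 8mer, again with a 7mer-m8 site for miR-196. The Dicer1 3′ UTR peak at chr12:104690230-104690306 held a 7mer-A1 site for miR-103/miR-107 (a match to bases 2 to 7 followed by an A). The remaining Dicer1 peak, exonic, held an 8mer for miR-374b. Adjacent peaks can share RNA fragments of 1 region, which was not measured, and are not separate replicates.

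In the leading Dicer1 peak, the let-7 peak at chr12:104702669-104702727, G12D tumours had 101.2 scaled counts at the lowest, 120.1 at the median and 246.9 at the highest, and WT tumours had 27.7, 108.6 and 243.5. The groups overlapped almost throughout, and the high values belonged to G12D replicates 1 and 2 and WT replicates 2 and 3. The relative log2 fold change was 0.41 (SE 0.43, limma, adjusted p = 0.664), and it was 0.06 (SE 0.34, adjusted p = 0.980) without WT replicates 5 and 6. In the miR-103/miR-107 peak beside it, G12D tumours had 50.6, 53.4 and 64.2 scaled counts (lowest, median, highest), and WT tumours had 0, 50.1 and 64.4. All 6 G12D values lay within a narrow band, and WT replicates 1, 5 and 6 lay below it. Here the log2 fold change of 1.15 (SE 0.79, limma, adjusted p = 0.551) came to 0.15 (SE 0.31, adjusted p = 0.949) without WT replicates 5 and 6. The let-7 peak at chr12:104694669-104694731 was alike, with 21.5, 26.1 and 31.7 in G12D and 0, 20.8 and 30.2 in WT, and a log2 fold change of 1.22 (SE 0.69, limma, adjusted p = 0.505) that was 0.11 (SE 0.29) without those libraries. Summed over its 6 peaks, Dicer1 had 274.0 ± 74.0 scaled counts in G12D and 232.1 ± 137.6 in WT (SD, n = 6 each), a log2 fold change of 0.58 (SE 0.48, limma, adjusted p = 0.574). Without WT replicates 5 and 6 this sum had a log2 fold change of 0.04 (SE 0.29, limma, adjusted p = 0.988).

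Dgcr8, the RNA-binding partner of Drosha, had 4 peaks. Its 5′ UTR peak at chr16:18286564-18286620 (minus strand), marked in the annotation with an asterisk of unstated meaning, held a let-7 8mer. Drosha and DGCR8 are known to cut hairpins within the DGCR8 mRNA. The nearest annotated hairpin to the 5′ UTR peak was Gm24572, 1927 bases away, and the hairpin Mir1306 lay 2247 bases from that peak and 3789 bases from the exonic peak at chr16:18280394-18280450. No Dgcr8 peak overlapped either hairpin. The highest Dgcr8 peak was intronic, at chr16:18266743-18266794, with a miR-29 7mer-A1 site. There G12D tumours had 36.3, 75.4 and 136.2 scaled counts (lowest, median, highest), and WT tumours had 13.9, 48.4 and 70.0. G12D replicates 3, 4 and 6 exceeded the highest WT tumour and the other 3 G12D tumours lay among them. The relative log2 fold change was 0.99 (SE 0.49, limma, adjusted p = 0.497), or 0.57 (SE 0.41, adjusted p = 0.800) without WT replicates 5 and 6. Summed over 4 peaks, Dgcr8 had 179.0 ± 34.0 scaled counts in G12D and 153.5 ± 25.2 in WT (SD, n = 6 each), a log2 fold change of 0.21 (SE 0.25, limma, adjusted p = 0.673). Without WT replicates 5 and 6 this sum had a log2 fold change of 0.17 (SE 0.23, limma, adjusted p = 0.903).

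Xpo5, the exporter of precursor miRNAs, had a single intronic peak of low signal at chr17:46234740-46234796 (plus strand), with a miR-26 7mer-A1 site. G12D tumours had 6.73, 12.3 and 19.8 scaled counts there (lowest, median, highest), and WT tumours had 0, 4.59 and 16.7. The WT values at 0 are those of replicates 5 and 6, and no library had more than 62 reads. Its log2 fold change of 1.55 (SE 0.77, limma, adjusted p = 0.497) came to 0.33 (SE 0.50, adjusted p = 0.925) without these libraries.

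**Figure D2:**
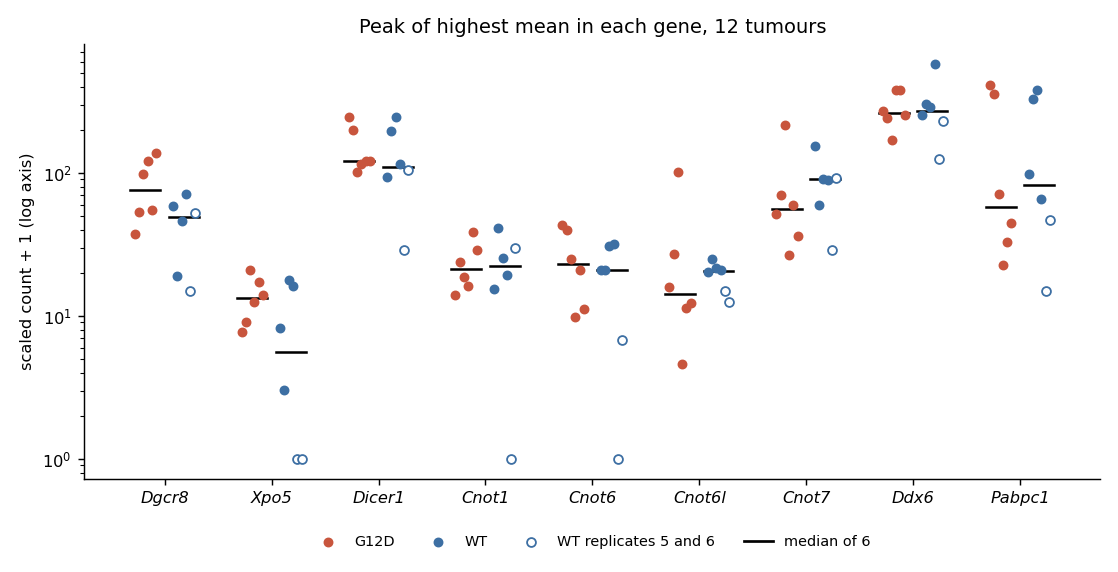
Scaled count plus 1, on a log axis, of the peak of highest mean in each of the 9 genes, with 6 G12D tumours left of 6 WT tumours, each point 1 library and the black line the median of 6. Open points are WT replicates 5 and 6. WT replicate 5 is the lowest of the 12 or tied for it in 7 of the 9 peaks, and the groups overlap in all 9.

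The 4 deadenylase genes had modest peaks, of which only that of Cnot7 had a mean above the 90th percentile of all peaks. Cnot7 had 1 peak, intronic, at chr8:40506625-40506674 (minus strand), with a let-7 8mer. G12D tumours had 25.8, 54.6 and 215.6 scaled counts there (lowest, median, highest), and WT tumours had 27.7, 89.1 and 153.5. The highest value, in G12D replicate 3, stood alone, and the other 5 G12D tumours were at or under 69.2. With that tumour included, the log2 fold change was -0.35 (SE 0.48, limma, adjusted p = 0.728), or -0.42 (SE 0.46, adjusted p = 0.886) without WT replicates 5 and 6. The intronic let-7 peak of Cnot6l at chr5:96136510-96136559 (minus strand) had 3.58, 13.2 and 101.2 in G12D and 11.5, 19.6 and 24.1 in WT, with the highest value again in G12D replicate 3. Its log2 fold change was -0.10 (SE 0.55, limma, adjusted p = 0.937), or 0.02 (SE 0.55, adjusted p = 0.996) without WT replicates 5 and 6. The other Cnot6l peak, also intronic, held a 7mer-m8 site for miR-30.

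Cnot6, the paralog of Cnot6l, had 4 exonic peaks, the highest at chr11:49682135-49682188 (minus strand) with an 8mer for the miR-200/miR-429 family. G12D tumours had 8.75, 22.0 and 42.3 scaled counts there (lowest, median, highest), and WT tumours had 0, 20.1 and 30.9. The highest values were those of G12D replicates 1 and 2, and the lowest that of WT replicate 5, where no read was found. Its log2 fold change of 0.85 (SE 0.67, limma, adjusted p = 0.584) was -0.05 (SE 0.41, adjusted p = 0.985) without WT replicates 5 and 6. The scaffold Cnot1 had 2 exonic peaks and a 3′ UTR peak, and the highest, at chr8:95741840-95741890 (minus strand), held only a 6mer site, for miR-26. It had 13.1, 20.2 and 37.5 in G12D and 0, 21.4 and 40.2 in WT, with a log2 fold change of 0.60 (SE 0.74, limma, adjusted p = 0.704) that was -0.16 (SE 0.39, adjusted p = 0.955) without those libraries. Cnot1 held no let-7 site, and 1 of its exonic peaks held a 7mer-m8 site for both miR-103/miR-107 and miR-15/16, whose seeds overlap.

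Ddx6 carried the highest peak of the 9 genes, at chr9:44634091-44634142 (plus strand), exonic, with 7mer-m8 sites for miR-30 and miR-181 and a 7mer-A1 site for miR-27. Its mean over the 12 libraries was higher than that of 98.6% of all peaks. Per base it had 5.55 scaled counts, against 3.31 in the leading Pabpc1 peak, 2.37 in that of Dicer1, 1.61 in that of Cnot7, 1.21 in that of Dgcr8, 0.461 in that of Cnot6l, 0.425 in that of Cnot1, 0.387 in that of Cnot6 and 0.170 in that of Xpo5. The ranges over the 12 libraries overlap in all 8 pairs of neighbours in this order. G12D tumours had 169.4, 262.2 and 377.8 scaled counts in the Ddx6 peak (lowest, median, highest), and WT tumours had 124.8, 268.9 and 579.4. The groups overlapped and both extremes were WT, replicate 5 at the bottom and replicate 4 at the top. The log2 fold change was 0.02 (SE 0.39, limma, adjusted p = 0.982), and without WT replicates 5 and 6 it was -0.49 (SE 0.26, adjusted p = 0.725).

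Of the other Ddx6 peaks, values are given for those picked for a small p in the relative limma fit, none of them called on that scale. An exonic peak at chr9:44623690-44623750 held 8mers for let-7 and for miR-26 and had 8.80, 9.86 and 29.2 scaled counts in G12D (lowest, median, highest), against 0, 5.38 and 20.6 in WT. Its log2 fold change was 1.59 (SE 0.70, limma, adjusted p = 0.497), or 0.63 (SE 0.50, adjusted p = 0.820) without WT replicates 5 and 6. A 3′ UTR peak at chr9:44636748-44636815, with no annotated site and the only member peak called in the WT list alone, had 2.47, 5.36 and 12.3 in G12D and 7.25, 11.2 and 124.8 in WT. The highest WT value rests on 9 reads in replicate 5 and the next, 40.2 in replicate 6, on 7 reads. The log2 fold change of -1.60 (SE 0.64, limma, adjusted p = 0.497; DESeq2, adjusted p = 0.0507) was -0.73 (SE 0.46, limma, adjusted p = 0.756) without those libraries. The peak at chr9:44639350-44639408, also in the 3′ UTR, held 8mers for miR-194 and miR-132/miR-212. Among the peaks with a mean of at least 20 scaled counts (2957 on other genes), those whose log2 values followed the leading Ddx6 peak most closely over the 12 libraries were on Ubfd1 (Spearman's rho 0.902), Slc35c1 (rho 0.895) and Klk1 (rho 0.881), a description of libraries that share depth and batch.

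Pabpc1 had the most peaks, 6 in exons and 1 in the 3′ UTR. The leading peak at chr15:36599198-36599244 (minus strand), with a miR-22 8mer, and its neighbours at chr15:36599289-36599309 and chr15:36599418-36599479 lie within 282 bases. In the leading peak G12D tumours had 21.9, 56.9 and 411.9 scaled counts (lowest, median, highest), and WT tumours had 13.9, 81.3 and 381.4. Within each genotype the values fell into high and low tumours, with G12D replicates 1 and 2 at 411.9 and 354.6 and WT replicates 2 and 3 at 329.7 and 381.4. No other tumour was above 97.6. Between genotypes the log2 fold change was -0.12 (SE 0.53, limma, adjusted p = 0.920). The 3′ UTR peak at chr15:36595936-36595995, with a miR-423-3p 8mer, had 6.60, 14.9 and 20.3 in G12D and 0, 9.55 and 18.1 in WT, a log2 fold change of 0.97 (SE 0.68, limma, adjusted p = 0.552). Without WT replicates 5 and 6 the 3′ UTR peak had 0.40 (SE 0.40, limma, adjusted p = 0.880). The leading peak then had -0.40 (SE 0.54, limma, adjusted p = 0.917). Pabpc1 has processed pseudogenes and paralogs, and the treatment of reads that map to several copies is unstated, so its exonic values are uncertain.

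The 4 tumours that were high for the Pabpc1 exon were also the highest for other members. Of 30 peaks with a mean of at least 5, 10 had exactly these 4 libraries on top, G12D replicates 1 and 2 and WT replicates 2 and 3. These were 3 peaks of Pabpc1, 2 of Dicer1, 2 of Dgcr8 and 1 each of Cnot1, Cnot6 and Ddx6. The 3 Pabpc1 peaks lie within 282 bases and the 2 Dicer1 peaks 66 bases apart, so neither set counts as separate replicates. The same 4 libraries were on top in 1181 of all 7450 peaks (15.9%), the commonest set in the series. All 4 belong to batch 1, and G12D replicate 3 and WT replicate 1 of that batch do not share the pattern. It runs across the genotypes, and its part in the results was not tested.

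**Figure D3:**
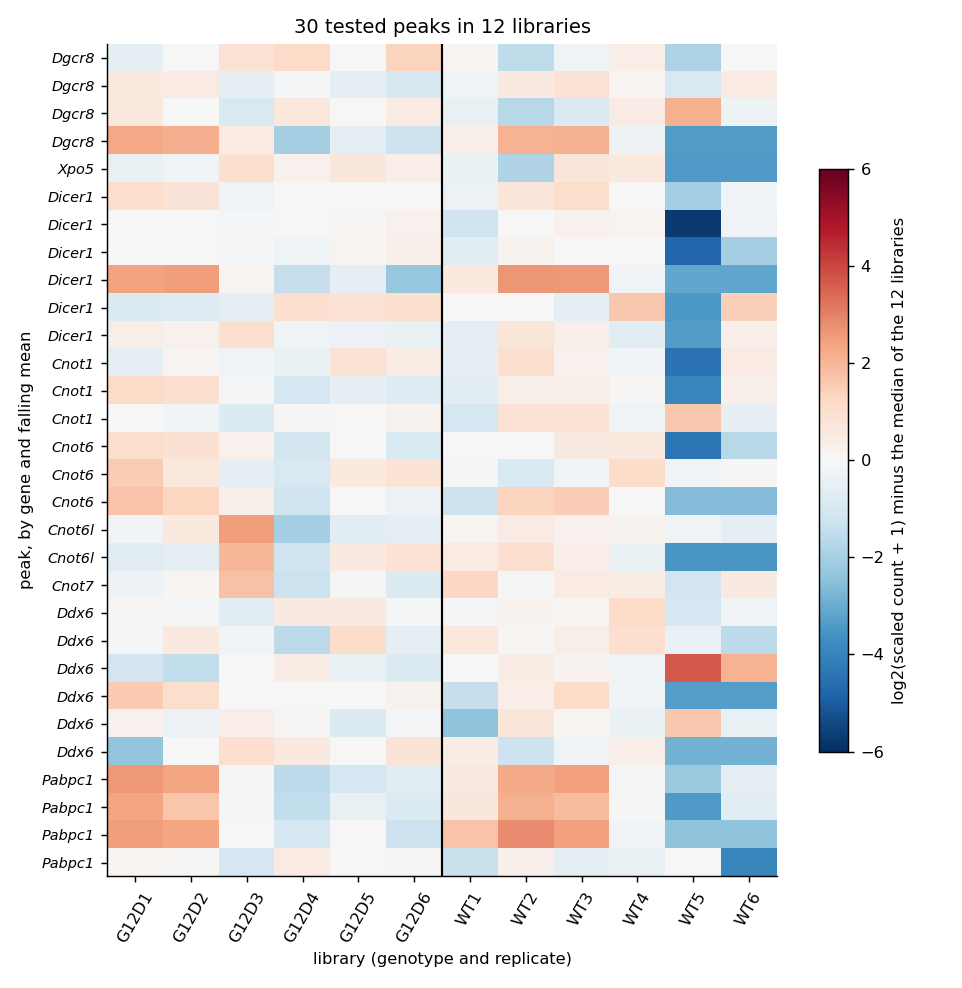
Log2(scaled count + 1) of the 30 tested peaks minus the median of the 12 libraries, with G12D replicates left of the line and WT replicates right of it, and peaks ordered by gene and falling mean. Red marks values above the peak's median and blue values below it. The 3 Pabpc1 exon peaks are red in G12D1, G12D2, WT2 and WT3, and 26 of the 30 peaks lie below their median in WT5 and 22 in WT6.

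Relative to the other peaks of each library, no peak of the 9 genes was called different between the genotypes. With limma on log2(scaled count + 1) and batch as a covariate, 0 of 30 tested peaks were called at an adjusted p under 0.05, where 0.0% of all 7450 tested peaks were called. At an unadjusted p under 0.05, 1 peak was higher (Ddx6, chr9:44623690-44623750) and 1 lower (Ddx6, chr9:44636748-44636815) in G12D, against 8.31% of all peaks higher and 1.62% lower. edgeR and DESeq2 on the recovered reads called 0 of the 30 too, against 0.188% and 1.56% of all peaks called. At an unadjusted p under 0.05 each had 1 of the 30 lower and 0 higher. Among all 7450 tested peaks edgeR had 300 lower and 263 higher at that limit, and DESeq2 342 lower and 415 higher. DESeq2, however, gave an adjusted p to only 4396 of the 7450 peaks. Of the peaks with values above, those of Xpo5, of Ddx6 at chr9:44623690-44623750 and of the Pabpc1 3′ UTR had none, so DESeq2 could not call them. The scaled counts of G12D and WT tumours overlapped in all 34 peaks, and among all tested peaks 0.55% lay wholly higher and 0.121% wholly lower in G12D. The median log2 fold change of the 30 peaks was 0.40, and that of all tested peaks was 0.53. Without WT replicates 5 and 6 these were -0.06 and -0.02. With all 12 libraries edgeR gave medians of 0.09 and 0.07, as did DESeq2. The shift of all peaks was smaller without WT replicates 5 and 6 and with edgeR or DESeq2, and its cause was not tested. Fold changes are therefore read against the median of all peaks. In batch 1 alone the median of the 30 was 0.10 and of all peaks -0.01, and in batch 2 alone, which holds the shallow libraries, 0.82 and 1.10. Summed over peaks, 0 of the 9 genes were called by limma, edgeR or DESeq2, against 0.0%, 0.31% and 2.27% of all 3870 genes. At an unadjusted p under 0.05 each tool had 0 of the 9, where limma had 8.97% of all genes higher and 2.04% lower. Of all 3870 genes edgeR had 202 higher and 158 lower at that limit, and DESeq2 290 higher and 192 lower. The median log2 fold change was 0.21 for the 9 genes and 0.48 for all, and 0.02 and 0.04 without WT replicates 5 and 6. These values mix the level of an RNA with its binding to Ago2, and in bulk tissue fewer cells of a type and less RNA per cell cannot be told apart.

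**Figure D4:**
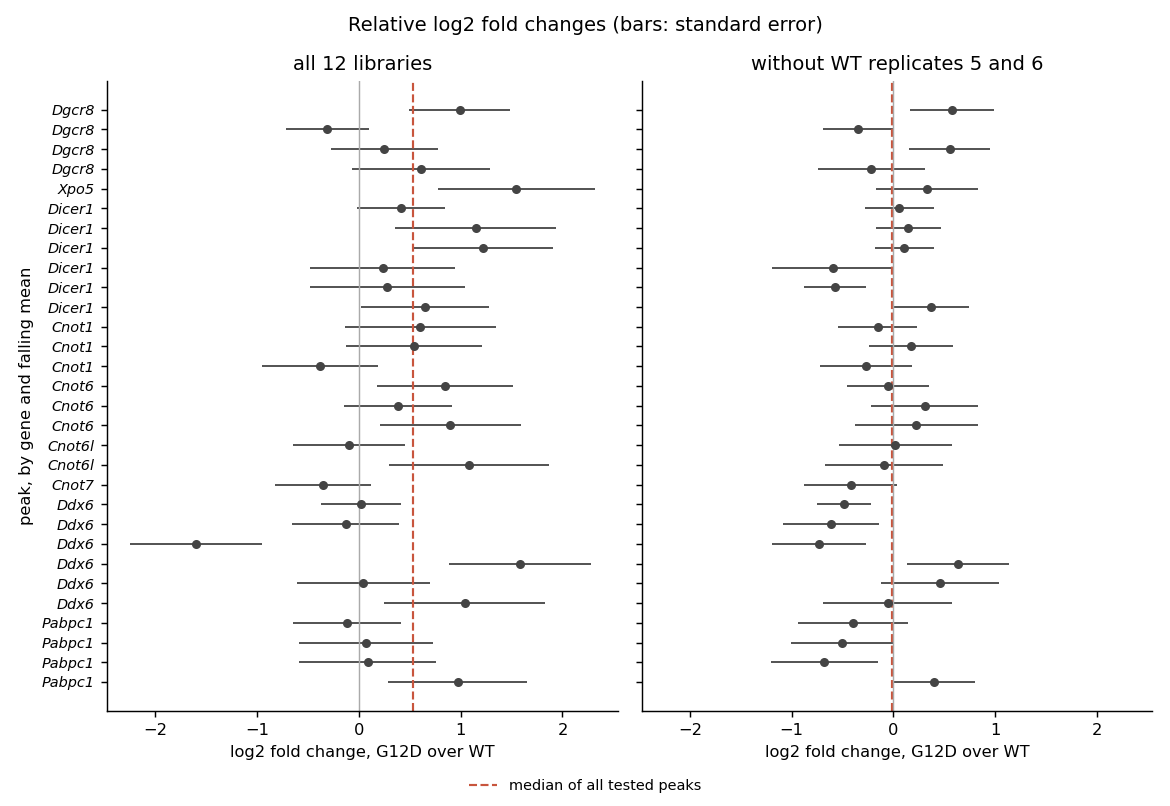
Relative log2 fold change, G12D over WT, of the 30 tested peaks with all 12 libraries (left) and without WT replicates 5 and 6 (right), points with standard errors, and the median of all tested peaks as a dashed line at 0.53 and -0.02. Most points lie around the dashed line on both sides, and the Ddx6 points at -1.60 and 1.59 move to -0.73 and 0.63.

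On the authors' own scale the picture is shifted as a whole. With their normalised counts the median log2 fold change was 1.30 for 31 tested peaks and 1.33 for all 7527, with limma calling 0 of the 31 (0.0% of all), and 7 of the 31 at an unadjusted p under 0.05, all higher, against 35.9% of all peaks. DESeq2 on this scale called 1, the intronic Dgcr8 peak (log2 fold change 1.58, adjusted p = 0.0489), where 10.5% of all peaks were called, and the authors' deposited table gives the same peak a log2 fold change of 1.58 and an adjusted p of 0.0494, with 10.3% of all its peaks called. Without WT replicates 5 and 6 DESeq2 called 0 of the 31 and 2.27% of all peaks, and relative to all peaks of the library the same peak had an adjusted p of 0.450 in DESeq2. The authors' deposited table holds log2 fold changes above 0 for 31 of the 34 peaks, with a median of 0.785, against 0.854 for all peaks. Leaving out WT replicate 4 alone gave 12 calls among the 31 with limma, all higher in G12D, but 45.1% of all peaks were then called higher, and library quality weights gave 2 calls, where 11.3% of all peaks were called.

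The miRNAs that could read these sites ranged from abundant to scarce, and few were called different between genotypes. Sites of 43 families were annotated in the 34 peaks, 27 of them with an 8mer or 7mer, and levels below are the authors' normalised counts in the miRNA libraries. Summed by family they averaged 35786 for miR-200/miR-429, the highest, and 78.8 for miR-21-3p. The miR-199-3p family had no miRNA matched to it. let-7i-5p, the most abundant let-7, had 4932, 5380 and 6317 normalised counts in G12D (lowest, median, highest), and 5149, 5519 and 6596 in WT. The whole let-7 and miR-98 family summed to 16466 ± 1763 in G12D and 16382 ± 1843 in WT (SD, n = 6 each). The log2 fold change of let-7i-5p was -0.03 (SE 0.07, limma, adjusted p = 0.819), with G12D replicates 4, 5 and 6 slightly below the lowest WT tumour and the rest among the WT tumours. miR-196b-5p, with 10393, 11691 and 16362 in G12D and 9190, 11688 and 13988 in WT, had a log2 fold change of 0.06 (SE 0.09, limma, adjusted p = 0.734). Since a let-7 8mer holds a miR-196 6mer, and 2 of the Dicer1 let-7 peaks hold a miR-196 7mer-m8 site, the annotation cannot tell which of these miRNAs bound.

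miR-103-3p, which like miR-107 can pair with the Dicer1 sites, was less abundant, with 904.0, 1166 and 1404 normalised counts in G12D (lowest, median, highest) and 638.0, 898.0 and 1063 in WT. G12D replicates 2, 4, 5 and 6 lay above every WT tumour, replicate 2 narrowly, and the other two overlapped with WT. For miR-103-3p the log2 fold change was 0.36 (SE 0.16, limma, adjusted p = 0.244). The most abundant miRNAs of the other families shown, miR-30e-5p, miR-27a-3p, miR-26a-5p, miR-200c-3p, miR-19b-3p and miR-20a-5p, had log2 fold changes of -0.11, 0.16, 0.15, -0.08, 0.01 and 0.07, none called by limma.

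**Figure D5:**
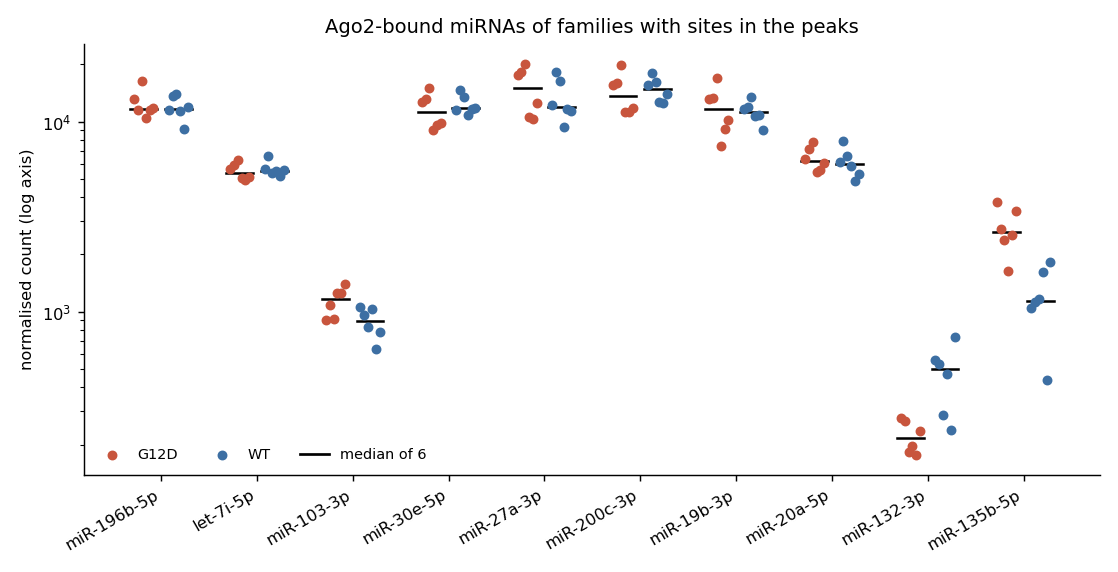
Authors' normalised counts, on a log axis, of the most abundant miRNA of 8 families with sites in the peaks and of miR-132-3p and miR-135b-5p, with 6 G12D tumours left of 6 WT tumours and the black line the median of 6. For miR-135b-5p 5 of 6 G12D tumours and for miR-103-3p 4 of 6 lie above every WT tumour, for miR-132-3p 4 of 6 lie below, and the groups overlap in all 10.

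Of 89 tested miRNAs of the 43 families, 1 was called higher and 0 lower in G12D by limma, against 1.76% of all 284 tested miRNAs higher and 2.11% lower. edgeR called 2 of the 89, against 4.93% of all, and DESeq2 7, against 9.51% of all. The limma call was miR-135b-5p, whose family has a 7mer-m8 site in a Pabpc1 exon peak at chr15:36597038-36597092. That peak averaged 3.34 scaled counts over the 12 libraries and was below the limit for testing, so no change of the peak can be set beside that of the miRNA. miR-135b-5p had 1635, 2632 and 3758 normalised counts in G12D (lowest, median, highest), and 439.3, 1142 and 1835 in WT. In 5 of 6 G12D tumours it was above the highest WT value. The log2 fold change was 1.27 (SE 0.31, limma, adjusted p = 0.0385). The call was lost without any 1 of G12D replicates 1, 2, 3, 5 and 6 and WT replicates 1, 2 and 3, and over the 12 omissions the adjusted p lay between 0.0147 and 0.0935.

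miR-132-3p, named after its values were seen, has family sites in 3 member peaks, an 8mer in the Ddx6 3′ UTR peak at chr9:44639350-44639408, a 7mer-A1 in the Cnot1 3′ UTR peak and a 6mer in a Cnot6 exon peak. It had 175.8, 215.3 and 277.3 normalised counts in G12D (lowest, median, highest), and 239.0, 502.0 and 732.5 in WT. Of the 6 G12D tumours 4 lay below every WT tumour. Its log2 fold change was -1.0 (SE 0.26), which limma did not call (adjusted p = 0.0521) and edgeR did (adjusted p = 0.0319), with 2.82% of all miRNAs called lower by edgeR. DESeq2 called miR-132-3p lower too, as it did 17 of all 284 miRNAs. With limma miR-132-3p was called in 2 of 12 omissions of 1 library, at adjusted p between 0.0086 and 0.123. The Ddx6 peak with the miR-132 8mer had a relative log2 fold change of -0.13, and -0.61 without WT replicates 5 and 6, neither called by limma (adjusted p = 0.909 and 0.818). Means of the other peaks were higher in G12D with all libraries. The Cnot1 3′ UTR peak had 16.3 ± 11.3 scaled counts in G12D and 12.7 ± 7.20 in WT (SD, n = 6 each). The Cnot6 peak had 24.4 ± 14.4 in G12D and 17.4 ± 9.59 in WT, and in both peaks the groups overlapped.

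The rest of the pathway was read from a list of 44 other genes of miRNA biogenesis, deadenylation and decapping. Of these, 22 had 61 peaks, and 22 had no peak in the table, among them Drosha, the Dicer partners Tarbp2 and Prkra, and the CCR4-NOT subunits Cnot2, Cnot3 and Cnot8. Of 60 tested peaks 0 were called higher and 0 lower by limma, edgeR or DESeq2 on the relative scale, and their median log2 fold change was 0.62, against 0.53 for all tested peaks. Without WT replicates 5 and 6 these medians were -0.04 and -0.02 (limma). As above, DESeq2 gave an adjusted p to only 4396 of the 7450 tested peaks. The highest was an exonic peak of Patl1, a decapping activator, at chr19:11939747-11939802, with 86.6, 117.6 and 165.6 scaled counts in G12D (lowest, median, highest) and 55.5, 108.6 and 161.0 in WT. An exonic peak of Zcchc11, a terminal uridyltransferase that acts on let-7 precursors, had 65.2, 116.7 and 153.2 in G12D and 11.5, 101.8 and 161.4 in WT. Btg2, which binds CAF1-type deadenylases, had 17 peaks, and the highest, in the 3′ UTR, had 37.4, 90.2 and 108.2 in G12D and 41.6, 71.0 and 223.9 in WT. In all of these the groups overlapped.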

How the data were processed

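Per the submitters' processing notes, reads were aligned with STAR 2.5.2b to mm10 (GRCm38) and DESeq2 was used; which program called the peaks is not given. The deposited peak and miRNA values are the authors' normalised signal, reads divided by a size factor for each library, and 100.0% of them came back as whole reads (within 0.001). The authors' deposited table also gives log2 fold changes and adjusted p-values, and their peak lists a score, used only to see which list holds a peak. No library type stands in the names of the peak columns, which were read as the mRNA libraries.

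Peaks were tested with limma 3.58.1 (R 4.3.3), the response being log2(value + 1) and batch an added term, for features with a mean of at least 5 (peaks and genes) or 10 (miRNAs), and Benjamini-Hochberg adjustment over all of them at 0.05. This was done on the authors' scale, and on scaled counts relative to all peaks of the library, for peaks and for sums per gene. Since the values are normalised, tests of the recovered reads with edgeR 4.0.16 and DESeq2 1.42.0 are alternatives. Scripts were tested on simulated data. The members and lists, and the rule for named peaks (the highest of each gene and 5 more of smallest p), were chosen with earlier results of these data known. miRNA names were matched to RefSeq for 517 of 596 miRNAs. Numbered tumours were not taken as pairs. Depth limits precision most in WT replicates 5 and 6.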

Additional observations from a re-analysis of the deposited data

Results flagged for a closer look

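In 62 groups of 6 values, 7 had a highest value that stood apart from the other 5 by Dixon's criterion. For independent, normally distributed values chance marks about 1 in 20 groups. The counts were not shown to be normal and some groups share reads, so 7 of 62 cannot be set against that rate. Of the 7, 3 belong to G12D replicate 3, at 215.6 scaled counts in the Cnot7 peak (the next G12D tumour had 69.2), 101.2 in the Cnot6l let-7 peak (next 25.9) and 145.2 in the Cnot6l sum (next 32.7), which includes that peak. In the miR-103/miR-107 peak of Dicer1, G12D replicate 6 had 64.2 (next 55.5). In the Ddx6 peak without a seed site, WT replicate 5 had 124.8 (next 40.2), which rests on 9 reads. In the Ddx6 sum, WT replicate 4 had 684.4 (next 381.9). In the miRNA libraries, WT replicate 2 had 6596 normalised counts of let-7i-5p (next 5638).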

How the results depend on the processing

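On the relative scale 0 of the 30 peaks and 0 of the 9 genes were called under every alternative run. DESeq2 gave an adjusted p to only part of all tested peaks there (4396 of 7450 with all libraries). On the authors' scale limma called 0, DESeq2 1, library quality weights 2 (11.3% of all peaks), and omission of single libraries 0 to 12 (12 without WT replicate 4). Of the miRNAs of the member families limma called 1, edgeR 2 (4.93% of all miRNAs) and DESeq2 7 (9.51%). Without WT replicates 5 and 6 limma called 2, where 4 of all 284 miRNAs were called higher and 7 lower. Batch 2 alone gave 0, and 0 of all 284. Single omissions gave 0 to 3, with 1 to 5 of all 284 called higher and 4 to 11 lower. The median log2 fold change of all peaks was 0.60 with TMM scaling and 0.65 with scaling by total peak reads, against 0.53, but 0.26 with a pseudocount of 5 and 0.07 in edgeR and DESeq2.

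The correlation of deviations of same-numbered G12D and WT tumours was -0.08 to 0.63 for peaks, above 0.1 in 3 of 6 pairs, and 0.075 to 0.46 for miRNAs, positive in all 6 and above 0.1 in 5. As pairing was to hold in every pair, the numbers were not taken as pairs, and 1 of 6 G12D tumours correlated best with its own number in each data type. With a replicate block 0 peaks and 0 genes were called, and 1 miRNA, miR-132-3p, was called lower (adjusted p = 0.0284, limma), with miR-135b-5p at an adjusted p of 0.0516 (limma). Of all 284 tested miRNAs the block then had 1 called higher and 5 lower.

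Directions turned in log2 fold changes that no setting called, except the leading Ddx6 peak on the authors' scale, called without WT replicate 4, and the cause was not tested. On the relative scale without WT replicates 5 and 6 (limma, edgeR, DESeq2), the Ddx6 peak at chr9:44634091-44634142 had -0.49, -0.47 and -0.47, Cnot1 -0.16, -0.15 and -0.14, Cnot6 -0.054, -0.11 and -0.11, Cnot6l 0.019, 0.16 and 0.19, and the Pabpc1 sum -0.35, -0.23 and -0.24. With all libraries edgeR and DESeq2 gave Ddx6 -0.12 and -0.13, Cnot1 -0.025 and -0.029, Cnot6l 0.15 and 0.16, and the Pabpc1 sum -0.065 and -0.053. In batch 1 alone Ddx6 had -0.33, Cnot1 -0.46, Cnot6l 0.66, the Cnot1 sum -0.014, the Pabpc1 sum -0.19, let-7i-5p 0.029, miR-30e-5p 0.041 and miR-200c-3p 0.035. In batch 2 alone the Ddx6 sum had 0.033 and miR-19b-3p -0.20. Total peak reads gave Pabpc1 0.060, Cnot6l 0.068 and the Ddx6 sum 0.077, and a pseudocount of 5 gave Cnot6l 0.0029. On the authors' scale Ddx6 had -0.062, -0.038 and -0.036 without WT replicates 5 and 6 (limma, edgeR, DESeq2), Cnot7 -0.00033 without them and -0.087 with quality weights, and Cnot1 -0.0027 in batch 1 alone. Leaving out single libraries gave Cnot1 -0.19 to 0.89, Cnot6l -0.52 to 0.19, Ddx6 -0.24 to 0.25, Pabpc1 -0.40 to 0.24, and sums of -0.12 to 0.20 for Cnot1, -0.14 to 0.50 for Cnot6l, -0.22 to 0.054 for Ddx6 and -0.20 to 0.38 for Pabpc1, and miR-19b-3p -0.067 to 0.090. The edgeR and DESeq2 fits without WT replicates 5 and 6 were chosen after seeing the data. In WT replicate 5, 1 read is 13.9 scaled counts, so peaks of low signal cannot be measured there.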
